A study of Mus musculus with 14 samples.

Results

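Brown adipose tissue (BAT) of mice lacking Clstn3b in adipocytes (AdC3KO) was compared with that of wild-type mice (WT) after 2 weeks at 30 C, a temperature at which mice need little extra heat. The comparison used 3 WT and 3 AdC3KO libraries of the 14 in the series, chosen by their genotype and temperature labels. All mice were males aged 10 weeks, and the remaining libraries, 4 of each genotype, came from mice moved from 30 C to 4 C for 6 h. The knockout is described in the series' design text as adipocyte-specific, so the other cells of the tissue keep an intact Clstn3 locus. Neither the strain nor the promoter that drives the recombinase is given in the sources used here. Whether every library comes from its own animal is not stated, and the spread behind the p-values is that between libraries.

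Calsyntenin-3b is an adipocyte product of the Clstn3 locus, made from a promoter inside the gene that is used in fat cells. The protein sits in the endoplasmic reticulum and at lipid droplets, where it is known for limiting droplet fusion by CIDE proteins and so for keeping brown adipocytes filled with many small droplets. Small droplets give lipases a large surface, and the fatty acids they release fuel and activate uncoupling protein 1 (Ucp1) when the sympathetic nerves call for heat. At thermoneutrality that call is weak, and the question of the comparison is what loss of Clstn3b does to the transcripts of resting brown fat.

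Depth ran from 19.9 M to 26.3 M in the 6 libraries, where M stands for 1e6 reads counted on genes, and 15949 genes were tested. Libraries of the same genotype correlated at r = 0.982 to 0.989 across genes and libraries of different genotype at 0.983 to 0.988. The libraries differed in 3 further ways, none of which the labels mention and all noticed in the data. Transcripts of skeletal muscle were high in WT replicate 3 and in AdC3KO replicates 1 and 2. Myh4, the fast muscle myosin, had 84.4 CPM (counts per 1e6, scaled by TMM) in the first and 23.3 and 7.33 CPM in the others, against 0, 0 and 0.037 CPM in the remaining libraries at 30 C. Oocyte transcripts were present in all 6 libraries at 30 C and are described below. The share of gene counts that fell on processed pseudogenes was used to cut the 14 libraries into 2 sets. The cut was made at the widest gap between the sorted shares, so the sets cannot overlap in this share. They held 6 libraries at 0.0679% to 0.0726% and 8 at 0.0790% to 0.0922%. In summed CPM the processed pseudogenes did overlap at 30 C, with 653 in AdC3KO replicate 3 and 652 in WT replicate 1. All 3 AdC3KO libraries at 30 C were in the lower set and all 3 WT libraries at 30 C in the higher set. At 4 C the lower set held 1 WT and 2 AdC3KO libraries. At 30 C this split and the genotype cannot be told apart. A fit with the split as a term, which the libraries at 4 C make possible, was also run. Its values are given beside several, but not all, of the results that they change. That term removes the difference in processed pseudogenes by construction.

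**Figure D1:**
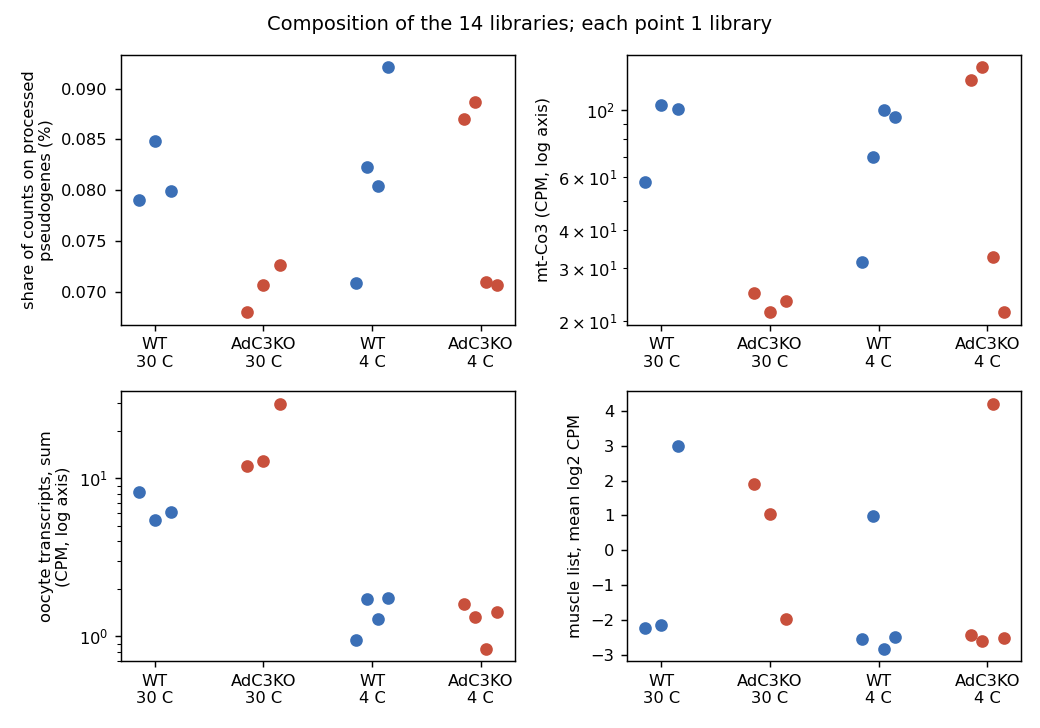
Library composition in the 4 groups (x axis), 1 point per library, blue for WT and red for AdC3KO: share of counts on processed pseudogenes (%), mt-Co3 (CPM, log axis), summed oocyte transcripts (CPM, log axis) and mean log2 CPM of the muscle list. At 30 C the genotypes did not overlap for the first 3 measures, and at 4 C they overlapped for all 4.

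Few genes were called different between the genotypes. The edgeR quasi-likelihood test, with the spread estimated from all 14 libraries, called 7 of 15949 genes at a Benjamini-Hochberg adjusted p under 0.05 (0.0439%). Of these, 6 were higher in AdC3KO (0.0376%) and 1 was lower (0.00627%). Clstn3 was the lower gene. The higher genes were Pex5, Kng1, Eif4a2, Ankdd1a and the processed pseudogenes Gm11868 and Gm7049. DESeq2 called 8 genes (0.0503% of the 15893 it tested), the same 7 and the zinc finger gene Zfp949. At an unadjusted p under 0.05 there were 107 higher and 105 lower genes (0.671% and 0.658%), fewer than the nominal rate of that threshold. This number depended on the fit. It was 372 of 15105 genes in the 6 libraries at 30 C alone and 593 of 15949 with the pseudogene split as a term. The low number does not show that the other genes were equal. The 3 libraries of each genotype did not overlap for 1163 genes (7.29%).

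Not every call held when a library was left out. Clstn3, Pex5, Kng1 and Gm11868 passed the threshold when any library at 30 C was left out, whereas Eif4a2, Ankdd1a and Gm7049 each lost the call with at least 1 library. Without the 5 libraries of the series that carried muscle transcripts, AdC3KO at 30 C was left with 1 library, assumed to vary like the other groups, and 2 genes, Clstn3 and Kng1, were called. With the pseudogene split as a term 4 genes were called, Clstn3, Kng1, Pex5 and Gm11868.

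**Figure D2:**
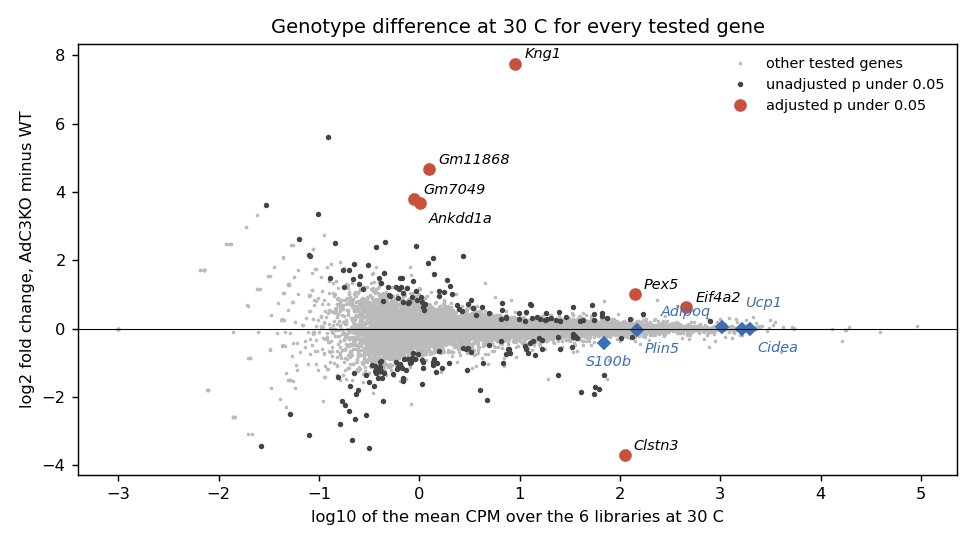
Log2 fold change at 30 C, AdC3KO minus WT (y axis), against the log10 of the mean CPM over the 6 libraries (x axis), 1 point per tested gene. The 7 called genes are in red, and 5 brown-fat genes marked in blue lie between -0.41 (S100b) and 0.04 (Adipoq).

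The knockout was visible at its own locus. Clstn3 (ENSMUSG00000008153, GRCm38 chr6:124430759-124464794, minus strand) had 182, 210 and 228 CPM in WT replicates 1 to 3 and 17.3, 14.8 and 15.3 CPM in AdC3KO. Every AdC3KO library was far under every WT library. The mean fell from 207 ± 23.2 to 15.8 ± 1.31 CPM (SD, n = 3 each), a 13.1-fold difference, with a log2 fold change of -3.71 (SE 0.14, edgeR adjusted p = 1.1e-09). An exact two-sided permutation test of the same values gave p = 0.1, the smallest p that 3 libraries against 3 allow. The table counts reads over the gene as a whole, so the adipocyte product and the longer calsyntenin-3 transcripts are not separated, and in whole tissue fewer cells of a type and less RNA per cell cannot be told apart. The other calsyntenins, membrane proteins known mainly from synapses, were not called. Clstn1 had 36.7, 29.9 and 34.2 CPM in WT and 32.7, 31.5 and 33.0 CPM in AdC3KO, a log2 difference of -0.05. Clstn2 was below 1 CPM in all 6 libraries.

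Pex5, the next tested gene below Clstn3 on the same strand, was the only other gene of the neighbourhood that was called. It encodes the receptor that carries enzymes with a C-terminal targeting signal into peroxisomes. Pex5 (chr6:124396816-124415067, start 33.9 kb from that of Clstn3) had 82.7, 94.0 and 101 CPM in WT and 192, 192 and 176 CPM in AdC3KO. The groups did not overlap, and the level in AdC3KO was 2.02-fold that in WT, with a 95% confidence interval of 1.73 to 2.35 (log2 fold change 1.01, SE 0.10, edgeR adjusted p = 2.3e-04). Its call was lost without the libraries with muscle transcripts (log2 fold change 0.99, adjusted p = 0.21). Of the 47 tested genes that start within 1 Mb of Clstn3, Pex5 alone reached an unadjusted p under 0.05, and the median log2 fold change of the 47 was -0.02. Pex5 did not move with the genes of its organelle. Of 32 tested peroxisome genes 1 was called. The median log2 difference was 0.03, and -0.17 with the pseudogene split as a term. The most abundant members had overlapping values. Phyh (alpha-oxidation of branched fatty acids) had 608, 695 and 639 CPM in WT and 619, 635 and 735 CPM in AdC3KO. Scp2 (a lipid carrier and thiolase) had 519, 615 and 670 against 567, 640 and 631 CPM.

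**Figure D3:**
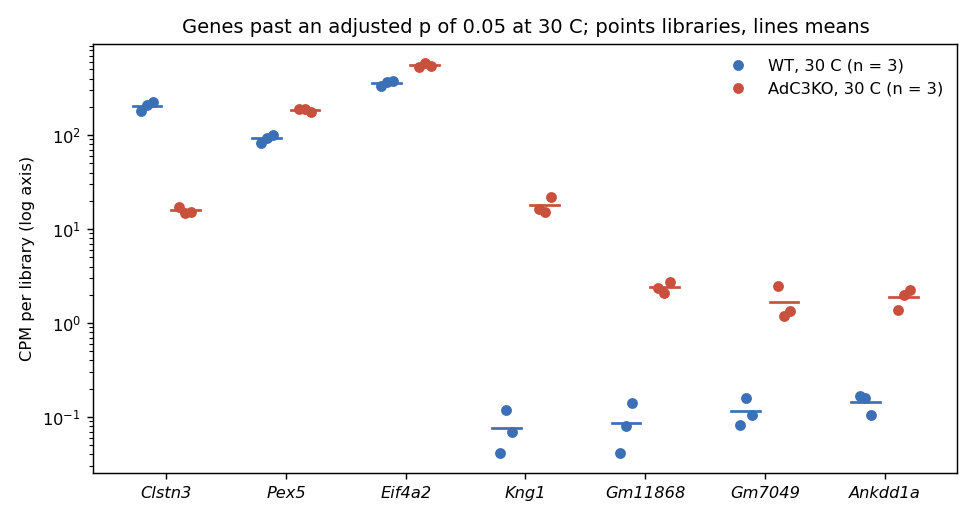
CPM of the 7 called genes in each library at 30 C (log axis; points are libraries, lines are means of n = 3, blue WT and red AdC3KO). The groups do not overlap for any of the 7, and Kng1, Gm11868, Gm7049 and Ankdd1a lie below 0.2 CPM in WT.

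On chromosome 16, Kng1 and Eif4a2, both near Adipoq, the gene of the fat hormone adiponectin, were higher in AdC3KO. Kng1 encodes kininogen, the plasma precursor of bradykinin, which is made mainly in liver. Kng1 (chr16:23057865-23082078, plus strand) had 1, 3 and 2 counts in WT and 495, 414 and 598 counts in AdC3KO, or 0.041, 0.12 and 0.07 CPM against 16.2, 15.4 and 22.1 CPM. It was almost silent in every WT library and plainly detected in every AdC3KO library. The ratio was 232, with a 95% confidence interval of 93.0 to 506 (log2 fold change 7.76, SE 0.58, edgeR adjusted p = 5.6e-09).

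Eif4a2, an RNA helicase of the translation initiation complex, starts 49.6 kb after Kng1 (chr16:23107444-23114136, plus strand). It had 332, 370 and 379 CPM in WT and 534, 579 and 549 CPM in AdC3KO. The groups were well apart, but the difference was modest, 1.54-fold (95% confidence interval 1.33 to 1.77, log2 fold change 0.62, SE 0.10, edgeR adjusted p = 0.022). Over the alternatives its adjusted p ran from 6.3e-10 with DESeq2 to 1 without the libraries with muscle transcripts, at log2 fold changes of 0.57 to 0.66. Of the 22 tested translation initiation genes it was the only one called, and Eif4g2, the other most abundant member, had 481, 521 and 519 CPM in WT and 506, 521 and 544 CPM in AdC3KO.

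Of the 20 tested genes that start within 1 Mb of Kng1, 5 had an unadjusted p under 0.05, all with higher values in AdC3KO, against 0.671% of all tested genes. Besides Eif4a2 they were Rfc4, Kng2, Bcl6 and the pseudogene Gm8134, and none of these 4 passed the adjustment. Rfc4, a subunit of the clamp loader for DNA replication that overlaps the end of Eif4a2 on the other strand, had 4.55, 5.43 and 4.997 CPM in WT and 8.24, 7.85 and 9.23 CPM in AdC3KO (log2 difference 0.76, edgeR adjusted p = 1). Without the strand setting of the counting, reads of this pair cannot be told apart where the genes overlap. Kng2, the second mouse kininogen gene, had 160, 162 and 113 CPM in WT and 193, 149 and 245 CPM in AdC3KO, and these groups overlapped. Bcl6, a transcriptional repressor known to support brown fat, had 59.0, 49.5 and 63.5 CPM against 81.9, 86.5 and 55.3 CPM and also overlapped. Gm8134 had 0 counts in WT and 21 in AdC3KO, at least 6.43-fold higher with a floor of 3 counts over the group. Gm8134 was also at 0 CPM in every WT library at 4 C, so only AdC3KO libraries could bring it into the test. Its direction among the 5 was therefore fixed by the filter. Adipoq itself, 88.7 kb from Kng1, had 771, 1094 and 1177 CPM in WT and 935, 1166 and 1033 CPM in AdC3KO, a log2 difference of 0.04 (SE 0.22).

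**Figure D4:**
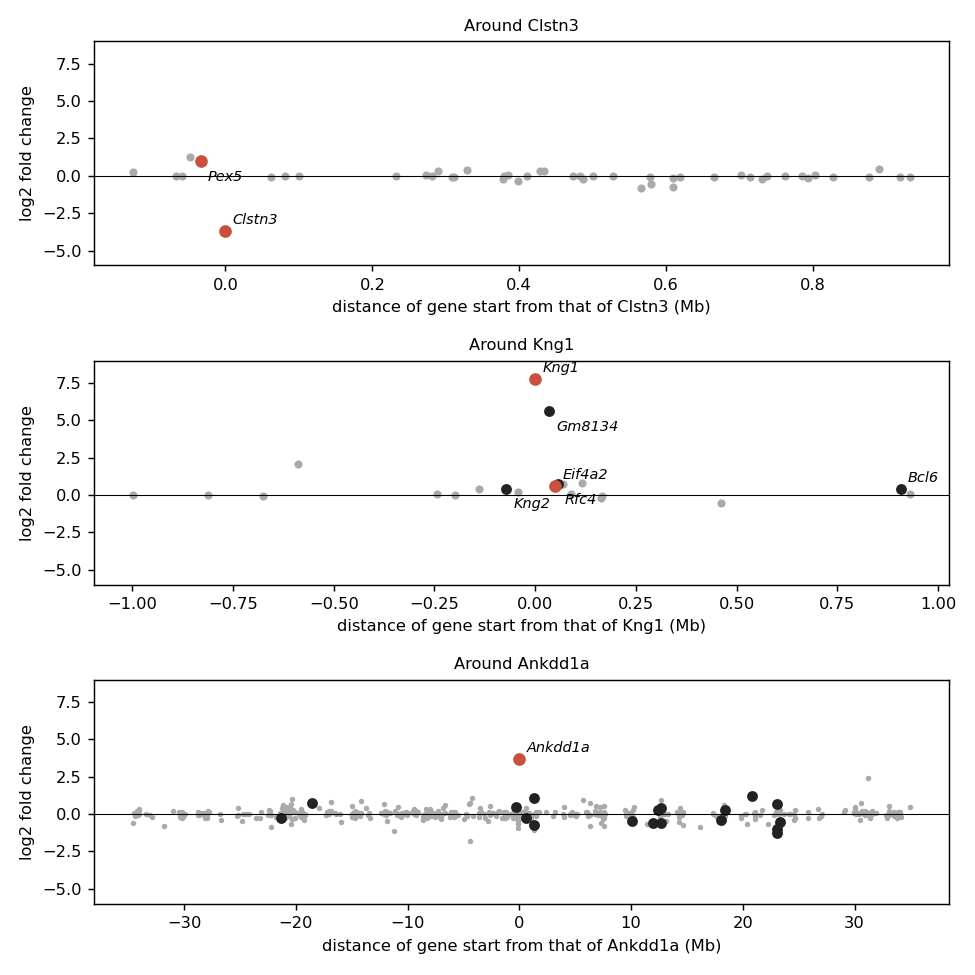
Log2 fold change at 30 C, AdC3KO minus WT (y axes), against the distance of each tested gene's start from that of Clstn3, Kng1 or Ankdd1a (x axes, Mb), with called genes in red, genes at an unadjusted p under 0.05 in black and the others in grey. Around Clstn3 only Pex5 is marked, around Kng1 the 5 marked neighbours lie above 0, and around Ankdd1a, where the axis is wider, marked genes lie on both sides of 0.

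The processed pseudogenes Gm11868 and Gm7049 were called although both lie far from Clstn3. A processed pseudogene is a copy of a spliced messenger RNA inserted elsewhere in the genome. Gm11868 (chr4:18844202-18845679, minus strand) had 1, 2 and 4 counts in WT and 73, 56 and 74 in AdC3KO (log2 fold change 4.67, SE 0.64, edgeR adjusted p = 0.0013). Gm7049 (chr13:62813076-62814787, plus strand) had 2, 4 and 3 counts in WT and 76, 32 and 36 in AdC3KO (log2 fold change 3.79, SE 0.55, edgeR adjusted p = 0.0037). Both were near 0 in each WT library and above 1 CPM in each AdC3KO library. Matched to all protein-coding transcripts of GENCODE M21, Gm11868 was closest to Cyb5r4, a cytochrome b5 reductase, at 98.0% identity over 1485 aligned bases. Gm7049 was closest to Me1, the cytosolic malic enzyme that supplies NADPH for fatty acid synthesis, at 98.4% over 1716 aligned bases. The stretches below are shown because a read is assigned to copy or parent by such differences. Each is 90 bases of the transcript, 5′ to 3′, from the coding part of the parent, picked as the gapless stretch with most differences, and capitals mark the 4 bases at which copy and parent differ. The first copy stretch lies at chr4:18845531-18845620 (minus strand) and the second at chr13:62813567-62813656 (plus strand) of GRCm38.
Gm11868: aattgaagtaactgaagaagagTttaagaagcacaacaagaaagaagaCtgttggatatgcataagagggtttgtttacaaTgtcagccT
Cyb5r4: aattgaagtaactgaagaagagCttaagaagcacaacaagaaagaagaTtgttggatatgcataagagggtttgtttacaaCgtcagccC
Gm7049: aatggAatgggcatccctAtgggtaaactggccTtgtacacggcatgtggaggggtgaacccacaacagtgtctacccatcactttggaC
Me1: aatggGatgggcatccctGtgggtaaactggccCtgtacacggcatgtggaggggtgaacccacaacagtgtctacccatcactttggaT

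The parents lie near each other on chromosome 9, and neither was called. Cyb5r4 (chr9:87022014-87077774) differed by -0.02 (log2, unadjusted p = 0.79) and Me1 (chr9:86581371-86695953) by -0.33 (unadjusted p = 0.21). Another copy also had its closest transcript on chromosome 9. Oaz2-ps on chromosome 3 was higher at an unadjusted p of 0.0047 (log2 difference 1.86, not called). Its closest transcript, Oaz2, encodes an inhibitor of polyamine synthesis and starts at 65668001 on chromosome 9. Of the 374 tested processed pseudogenes 5 were higher at an unadjusted p under 0.05. Of these 5, 3, the copies just named, had their closest protein-coding gene between 65 and 90 Mb of chromosome 9, bounds set after the values were seen. Closest genes were sought only for pseudogenes at that threshold, so no share over all 374 can be set beside this count.

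The same part of chromosome 9 held the last called gene and many of the near misses. Ankdd1a, a gene of ankyrin repeat and death domains with little known function, had 4, 4 and 3 counts in WT and 42, 54 and 61 in AdC3KO (chr9:65488470-65520193). This was a 13.1-fold difference with a 95% confidence interval of 5.496 to 29.5 (log2 fold change 3.67, SE 0.57, edgeR adjusted p = 0.014). On the whole of chromosome 9, 21 of 893 tested genes reached an unadjusted p under 0.05 (2.35%), against 1.33% of all tested genes. Within the same 65 to 90 Mb it was 17 of 154 genes (11.04%), and on the rest of the chromosome 4 of 739 (0.541%). Because the bounds were set after these values were seen, the cut itself raises the first share and lowers the second. The contrast between them is therefore a description and no test. The 17 moved in both directions, 8 higher and 9 lower, and differences were mostly under 2-fold.

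Among these 17 genes, Zfp949, a zinc finger gene at chr9:88548020-88571061, had the clearest separation after Ankdd1a. It had 8.90, 10.4 and 10.2 CPM in WT and 14.7, 17.2 and 16.1 CPM in AdC3KO (log2 difference 0.70, SE 0.14, edgeR adjusted p = 0.20, DESeq2 adjusted p = 0.0010), and at 4 C edgeR called it (log2 difference 0.84, adjusted p = 0.0078). Its neighbour Trim43a, of the tripartite motif family, had 2.24, 1.72 and 2.29 CPM in WT and 0.785, 0.558 and 1.22 CPM in AdC3KO. The noncoding RNA gene 9430037G07Rik, on the far side of Trim43a, had 5.05, 5.51 and 6.62 CPM against 3.5, 2.27 and 2.84 CPM. Elovl5, an elongase of polyunsaturated fatty acids, had 58.6, 66.2 and 72.1 CPM in WT and 75.6, 94.6 and 73.3 CPM in AdC3KO. Bckdhb, a subunit of the branched-chain keto acid dehydrogenase, had 110, 110 and 117 CPM against 125, 142 and 140 CPM. Gsta4, the glutathione transferase that clears 4-hydroxynonenal, had 46.2, 54.0 and 38.4 CPM against 55.2, 60.9 and 72.0 CPM. Aph1b, a subunit of gamma-secretase, had 14.95, 15.4 and 14.4 CPM against 10.5, 7.59 and 9.15 CPM, while its near copy Aph1c, beside it, had 0.994, 1.48 and 0.915 CPM against 2.29, 2.34 and 2.51 CPM. Counts of these near copies can be split unevenly. No gene of the segment other than Ankdd1a passed the adjustment in edgeR at 30 C, and these members are named by their unadjusted p. With the pseudogene split as a term the 17 kept their signs, but Aph1b moved from -0.71 to -0.16 on the log2 scale, Bckdhb from 0.27 to 0.10 and Gsta4 from 0.44 to 0.21.

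The brown-fat programme itself showed no called change. Of the 13 genes of heat production, droplets and secreted signals that were chosen with Clstn3 for description, none was called, none had groups that did not overlap, and the lowest unadjusted p was 0.10. Ucp1 had 1623, 1842 and 1410 CPM in WT and 1382, 1428 and 2045 CPM in AdC3KO. The highest and the lowest value of the 6 were both from AdC3KO libraries, and the fold of 0.996 had a 95% confidence interval of 0.778 to 1.28. Dio2, which activates thyroid hormone in brown fat, had 15.2, 12.4 and 16.7 CPM in WT and 15.5, 13.98 and 22.0 CPM in AdC3KO (fold interval 0.896 to 1.504). Ppargc1a, the coactivator that drives mitochondrial biogenesis, had 37.1, 35.1 and 43.6 CPM against 53.3, 47.6 and 40.6 CPM, a log2 difference of 0.29 with a fold interval of 0.854 to 1.74.

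Genes of the lipid droplet surface, where calsyntenin-3b acts, were not called either. Cidea, the droplet fusion protein of brown fat, had 1977, 2129 and 1776 CPM in WT and 1656, 1773 and 2436 CPM in AdC3KO, with a fold interval of 0.801 to 1.24. Cidec, its counterpart of large white-fat droplets, had 520, 607 and 636 CPM against 566, 636 and 648 CPM (interval 0.778 to 1.41). The perilipins, which coat droplets and gate lipases, had fold intervals of 0.801 to 1.31 for Plin1, 0.777 to 1.18 for Plin2 and 0.780 to 1.23 for Plin5. Over the 23 tested droplet proteins, none was called, 10 were above and 13 below 0, and the median log2 difference was -0.01, against 0.01 for all tested genes. All 23 lay within 0.5 of 0 on the log2 scale. With the pseudogene split as a term the median became -0.11, and none was called.

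S100b, a secreted protein that calsyntenin-3b is known to bind and that promotes growth of sympathetic nerve fibres, had the lowest p of the 13. It had 91.3, 81.1 and 62.0 CPM in WT and 52.4, 49.3 and 75.1 CPM in AdC3KO. AdC3KO replicate 3 lay above WT replicate 3, and the log2 difference was -0.41 (SE 0.23, unadjusted p = 0.10, fold interval 0.535 to 1.06). Leptin ranged widely within both genotypes, with 176, 185 and 64.8 CPM in WT and 108, 83.2 and 187 CPM in AdC3KO for Lep. Elovl3, the elongase that cold switches on in brown fat, stayed at or under 1.06 CPM, and Fgf21, a stress hormone of liver and brown fat, at or under 0.21 CPM.

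These values set how large a difference could have gone unseen. The whole 95% confidence interval of the fold lay within 1.5-fold of no difference, in either direction, for 8599 tested genes (53.9%). The same held for 7306 of the 8111 genes with at least 10 CPM (90.1%). The median standard error of a log2 fold change was 0.198 over all genes and 0.127 over those at 10 CPM or more. These intervals come from the fit without the pseudogene split, which cannot be told apart from the genotype at 30 C. With that term the SE of Clstn3 was 0.19 against 0.14, and list medians shifted as given below. The bounds above do not cover the uncertainty from the split.

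The gene lists of pathways and cell types held 628 symbols, of which 598 were tested. Called members were Clstn3, Pex5, Kng1 and Eif4a2, and 11 members (1.84%) reached an unadjusted p under 0.05, against 1.33% of all tested genes. The medians of the 26 pathway lists lay between -0.43 and 0.08 on the log2 scale. Lists of energy metabolism had medians close to 0, which were lower with the pseudogene split as a term. Of 47 nuclear genes of oxidative phosphorylation none reached an unadjusted p under 0.05, all lay within 0.5 of 0, and the median was -0.01. Atp5b, the catalytic subunit of ATP synthase, had 5321, 5635 and 5351 CPM in WT and 5497, 5101 and 5831 CPM in AdC3KO. The 21 genes of mitochondrial fatty acid oxidation had a median of 0.00 and the 21 of the citric acid cycle a median of 0.01, with no member of either list at an unadjusted p under 0.05. With the split as a term these medians became -0.24 for oxidative phosphorylation, -0.21 for fatty acid oxidation and -0.17 for the citric acid cycle, and those of lipolysis and of thermogenic effectors became -0.18 and -0.14 from 0.03 and 0.01. Among 21 genes of lipolysis the lowest p was that of Gnas, the stimulatory G protein downstream of adrenergic receptors, with 31.2, 37.8 and 50.2 CPM against 65.2, 52.8 and 38.5 CPM. Pnpla2, the lipase that starts triglyceride breakdown, had 2476, 2540.3 and 2505 CPM in WT and 2651, 2453 and 2812 CPM in AdC3KO. Triglyceride synthesis had a median of 0.08 over 17 genes, with none called. Branched-chain amino acid catabolism had a median of 0.08 over 19 genes, which turned to -0.14 with the split as a term, and that of triglyceride synthesis turned to -0.02. The lowest p among the branched-chain genes was that of Bckdhb on chromosome 9, described above.

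De novo lipogenesis varied more between libraries than between genotypes. Scd1, the desaturase that makes oleate, had 25177, 22862 and 6722 CPM in WT and 14818, 8859 and 18824 CPM in AdC3KO. Fasn, fatty acid synthase, had 6495, 6681 and 1502 CPM in WT and 3293, 2187 and 3726 CPM in AdC3KO. For both genes WT replicate 3, 1 of the libraries with muscle transcripts, was the lowest of the 6, and AdC3KO replicates 1 and 2, the others with muscle transcripts, were the lowest of their genotype. The part of that difference in composition was not tested. The median of the 16 tested lipogenic genes was -0.13, with 4 above and 12 below 0, 1 at an unadjusted p under 0.05 (Elovl5, higher) and none called.

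**Figure D5:**
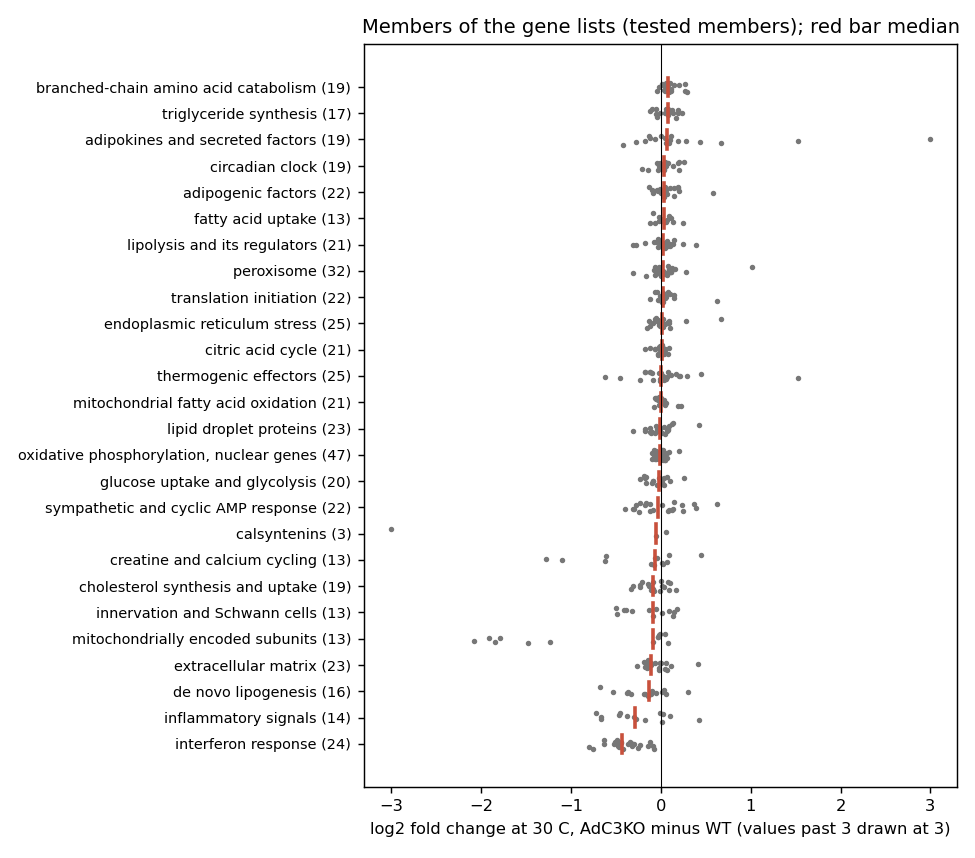
Log2 fold change at 30 C, AdC3KO minus WT (x axis), of the tested members of the 26 pathway lists (rows, with their number of tested members); each dot is a gene and each red bar the list's median. Most medians lie within 0.1 of 0, the interferon list is lowest at -0.43 with all 24 members below 0, and the mitochondrially encoded list splits into members near 0 and lower members.

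Of the 26 pathway lists, interferon-induced genes had the median farthest from 0. All 24 tested members were below 0, the median log2 difference was -0.43, and for 12 members every AdC3KO library was under every WT library, against 3.28% of all tested genes. Their summed level was 440, 364 and 400 CPM in WT and 319, 338 and 294 CPM in AdC3KO, so the genotypes did not overlap. Ifit3, an antiviral protein that binds foreign RNA with its relatives, had 16.3, 16.4 and 15.8 CPM in WT and 12.004, 9.97 and 9.34 CPM in AdC3KO (log2 difference -0.63). Bst2, which tethers budding viruses to the cell surface, had 47.6, 40.7 and 44.1 CPM against 33.9, 36.9 and 34.3 CPM. Gbp2, an interferon-induced GTPase, had 64.1, 51.2 and 49.5 CPM against 43.1, 52.3 and 32.5 CPM and overlapped. Ifit3 was named after its values were seen. None of the 24 reached an unadjusted p under 0.05 in the fit of 14 libraries, whose spread takes in the libraries at 4 C. There the sums were 184, 301, 243 and 2121 CPM in WT and 732, 379, 252 and 176 CPM in AdC3KO. The highest library of each genotype at 4 C was in the higher set of the pseudogene split. In a fit of the 6 libraries at 30 C alone, 13 of the 24 were lower at an unadjusted p under 0.05, against 1.46% of the 15105 genes in that fit, and none passed the adjustment. With the pseudogene split as a term the median of the list turned to 1.76. The direction at 30 C is therefore a description of these 6 libraries.

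Markers of other cells in the tissue gave no called gene. The 16 tested macrophage markers had a median of 0.12 and summed levels of 214 to 247 CPM in WT and 206 to 297 CPM in AdC3KO. With the pseudogene split as a term that median became 0.80, with 2 members higher at an unadjusted p under 0.05 and 0 called. Endothelial markers were below 0 for 14 of 15 genes with a median of -0.11, and their sums overlapped at 1085 to 1451 CPM and 1107 to 1272 CPM. Kdr, the main receptor for VEGF, had 186, 152 and 220 CPM in WT and 152, 156 and 168 CPM in AdC3KO. Extracellular matrix genes were below 0 for 18 of 23 members with a median of -0.11 and no member at an unadjusted p under 0.05. With the split as a term that median became -0.30, with 2 members lower at that threshold and 0 called. Brown adipocyte markers had a median of 0.00 over 10 genes, 5 above and 5 below 0. The labelled tissue was borne out by Ucp1 and Cidea, each at 1382 CPM or more in all 6 libraries.

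Mitochondrially encoded transcripts fell into 2 kinds. The most abundant overlapped between the genotypes, with mt-Co1, the core of cytochrome oxidase, at 74106, 92771 and 100404 CPM in WT and 98005, 90236 and 95237 CPM in AdC3KO, and mt-Cytb at 35372, 45448 and 39121 against 37608, 35158 and 39826 CPM. Among the thinly counted members, 5 had lower values in AdC3KO at 30 C with no overlap between the genotypes, namely mt-Co2, mt-Co3, mt-Atp6, mt-Nd3 and mt-Nd4l (as did 3.28% of all tested genes). mt-Atp8, the thinnest, overlapped, with 0.124, 0.718 and 0.352 CPM in WT and 0.098, 0.223 and 0.185 CPM in AdC3KO. mt-Co3, another oxidase subunit, had 57.7, 104 and 101 CPM in WT and 24.8, 21.5 and 23.4 CPM in AdC3KO (log2 difference -1.91, unadjusted p = 0.019). mt-Atp6, of ATP synthase, had 41.7, 74.4 and 74.5 CPM against 18.6, 15.6 and 18.97 CPM. mt-Nd3, of complex I, had 3.77, 8.58 and 6.30 CPM against 1.93, 1.75 and 1.70 CPM (log2 difference -1.79, edgeR adjusted p = 1). None was called in the fit of 14 libraries. In the 6 libraries at 30 C alone 10 genes were called (0.0662%), and these included mt-Co3, mt-Nd4l and the pseudogenes Gm28439 and Gm10925, all lower.

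The same 5 genes have a near-perfect nuclear copy over nearly their whole length. A run of pseudogenes on chromosome 1 between 24611535 and 24616197 is a copy of part of the mitochondrial genome. The transcripts of mt-Atp6, mt-Co2 and mt-Co3 matched Gm10925, Gm28661 and Gm28437 there at 100% identity over 678, 681 and 783 bases, with 0 mismatches. mt-Nd4l matched Gm10222 at 100% over 294 bases, and mt-Nd3 matched Gm28438 with 1 mismatch over 345. Abundant genes matched there in part, mt-Nd4 at 100% over 876 of its 1378 bases and mt-Co1 at 99.8% over 483 of 1545. mt-Cytb, mt-Nd1, mt-Nd2, mt-Nd5, mt-Nd6 and the thinly counted mt-Atp8 had no match in that run. The copies did not all follow their genes. Gm28437, the copy of mt-Co3, had 54.7, 104 and 97.3 CPM in WT and 26.9, 24.7 and 27.0 CPM in AdC3KO. Gm28438, the copy of mt-Nd3, had 238, 292 and 318 CPM in WT and 269, 253 and 297 CPM in AdC3KO, a log2 difference of -0.05 beside -1.79 for the gene. How the counting treated reads that fit several places is not given in the sources used here.

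Processed pseudogenes defined the split through their share of counts, and all AdC3KO libraries at 30 C were in the lower set. Lower values of processed pseudogenes in AdC3KO at 30 C are therefore not a separate observation of the split. Of 374 tested, 34 were lower and 5 higher at an unadjusted p under 0.05 (10.4%, against 1.33% of all tested genes), and their median log2 difference was -0.29. The 34 lower pseudogenes were 97.9% to 100% identical to their closest protein-coding transcript, 27 of them at least 99%. Identity was sought only for pseudogenes at that threshold. Whether the rest of the 374 are as close to their parents is not known here. Those parents had a median log2 difference of -0.01, and 1 of the 34 reached an unadjusted p under 0.05. Gm5559, a copy 99.9% identical to Gapdh, differed by -3.49. At 4 C none of the 34 reached an unadjusted p under 0.05, and their median difference was -0.02. The genotypes differed by 0.11 (log2) in mt-Co3 at 4 C, and over all 14 libraries mt-Co3 was at 21.4 to 32.5 CPM in the 6 of the lower set and 57.7 to 139 CPM in the 8 of the higher set. With the split as a term the difference of mt-Co3 at 30 C was 0.04 (SE 0.35). With that term mt-Atp6 and mt-Nd4l were at 0.11 and -0.03, but mt-Nd3 was at -0.59 (SE 0.44) and mt-Co2 turned to 0.72 (SE 0.32). The median of the mitochondrially encoded list moved from -0.09 to -0.27. The labels name no sequencing run or batch that the split could be set against.

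Transcripts of the oocyte were found in the libraries at 30 C, all of which came from males by their labels. A list of 18 such genes, drawn up after the first of them had been noticed, summed to 8.20, 5.43 and 6.09 CPM in WT and 11.9, 12.8 and 29.7 CPM in AdC3KO, and to between 0.831 and 1.75 CPM in the 8 libraries at 4 C. Padi6, which builds the storage lattices of the egg cytoplasm, had 1.49, 0.838 and 0.704 CPM in WT and 2.88, 2.71 and 7.71 CPM in AdC3KO, with at most 0.059 CPM at 4 C. Zp2, a protein of the egg coat, had 0.828, 0.399 and 0.352 CPM against 1.44, 1.64 and 3.54 CPM. Nlrp5, another maternal egg protein, had 0.621, 0.599 and 0.282 CPM against 1.01, 1.49 and 3.25 CPM and 0 counts in all libraries at 4 C. AdC3KO replicate 3 was the highest of the 14 libraries for each of the 3. Of the 9 tested members 6 were higher in AdC3KO at an unadjusted p under 0.05, against 0.671% of all tested genes, and none was called. With the pseudogene split as a term 2 of the 9 were higher at that threshold. The filter on low counts favours members that are high in AdC3KO. Khdc1b, for example, had 0.166, 0.12 and 0.106 CPM in WT, 0.556, 0.446 and 1.33 CPM in AdC3KO and at most 0.172 CPM at 4 C. The count of 6 is therefore in part fixed by the filter and is no test of the list. Xist, the RNA that silences an X chromosome in female cells, had 0.331, 0.399 and 0.141 CPM in WT and 0.785, 0.855 and 3.03 CPM in AdC3KO and at most 0.129 CPM at 4 C. Ddx3y, encoded on the Y chromosome, was present in every library at 30 C with 77.2 to 95.1 CPM. The part of this signal in other results was not tested.

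The called differences were seen again in the cold, in other libraries. All 7 genes had the same sign at 4 C and 6 of them were called there as well, among 8 called genes (0.0502%; DESeq2 called 21 genes there, 0.132%). The others called at 4 C were Zfp949 and Gm44007, a gene model to be experimentally checked below Pex5 that had 0.082 to 0.53 CPM in WT and 2.45 to 14.3 CPM in AdC3KO there, and at most 0.083 CPM in any library at 30 C. Clstn3 had 970 to 1195 CPM in WT and 53.8 to 77.9 CPM in AdC3KO at 4 C, a log2 fold change of -4.08. Kng1 had 0.047 to 0.122 CPM in WT and 13.2 to 25.9 CPM in AdC3KO. Pex5 and Eif4a2 differed by 1.27 and 0.61 on the log2 scale, and Gm11868 and Gm7049 by 4.82 and 3.69. Ankdd1a, the exception, differed by 1.79 at 4 C (unadjusted p = 0.020). No gene was called for the genotype by temperature interaction by edgeR or DESeq2, 349 genes had an unadjusted p under 0.05 there (2.19%), and none of the 7 was among them. Of the 17 genes in the chromosome 9 segment 16 kept their sign at 4 C and 13 reached an unadjusted p under 0.05 at both temperatures, against 4.80% of all tested genes at 4 C.

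Outside these places the nearest uncalled genes had smaller differences at 4 C. The rule for uncalled genes took the 10 protein-coding genes with the lowest p whose groups did not overlap and whose higher group reached 5 CPM, and 5 of them lay on chromosome 9 and 1, Rfc4, beside Eif4a2. Bcl3, a partner of NF-kappa B p50, had 10.6, 8.70 and 7.95 CPM in WT and 6.18, 5.24 and 4.80 CPM in AdC3KO (log2 difference -0.75, edgeR adjusted p = 1), with a difference of 0.12 at 4 C. Mettl14, of the RNA methyltransferase that writes N6-methyladenosine, had 14.04, 13.01 and 12.5 CPM against 17.1, 16.03 and 17.3 CPM, and a difference of -0.07 at 4 C. Rom1, a membrane protein best known from photoreceptors, had 4.68, 6.19 and 5.38 CPM against 8.14, 7.29 and 8.27 CPM, and 0.23 at 4 C. The mitochondrial gene of the 10, mt-Nd3, is given above.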

How the data were processed

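RNA was measured by sequencing in BAT, from NEBNext Ultra II libraries, per the labels' protocols. The authors deposited whole-number read counts per Ensembl gene, not normalised, made with FastQC, Trimmomatic, STAR and HTSeq on GRCm38/mm10 per the submitters' processing notes. For tool versions, annotation, strand setting and multiply aligned reads: not given in the sources used here. A further 5 lines that name no gene were left out of sizes and tests, 3 of them being 0 throughout. Reads outside genes were 5.95% to 6.98% of a library at 30 C and reads on several genes 5.78% to 6.03%. GENCODE M21 named 55230 of 55471 identifiers.

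The tests used edgeR 4.0.16 with R 4.3.3 (filterByExpr at a minimum count of 10, TMM, robust quasi-likelihood fit of 4 group means over 14 libraries, Benjamini-Hochberg threshold 0.05) and with DESeq2 1.42.0. The contrast is AdC3KO minus WT at 30 C. Standard errors and 95% intervals come from the fitted model, cover the spread between libraries, and no molecular identifiers are named. Library pairs of a group differed beyond sampling noise (chi-square per degree of freedom 16.9 to 54.4). The numbers in the titles did not pair libraries across genotypes (r of deviations -0.27 to -0.04). The script was tested on simulated data with 200 changed genes. Closest transcripts were found with blastn 2.17.0, plus strand, by bit score. Alternatives covered scaling, filters, fits, left-out libraries and the library split, the last chosen after seeing the data.

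The comparison and the gene lists were chosen with earlier results of these data known. Genes named are Clstn3, called genes, 13 brown-fat genes, neighbours within 1 Mb at an unadjusted p under 0.05, the 2 most abundant and the lowest-p member of each list, and the 10 uncalled genes described. Chromosome 9 segment genes, pseudogenes, mitochondrial copies, oocyte genes and Ifit3 were named after their values were seen. Not every gene the rule names is given.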

Additional observations from a re-analysis of the deposited data

Results flagged for a closer look

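Groups of 4 libraries, those at 4 C, were searched for a library far from the rest in the 20 genes named first, 40 groups in all, of which chance marks about 5%. Kng1 stood out in WT replicate 4 (0.122 CPM), Dio2 in AdC3KO replicate 2 (4064 CPM), and Cidec in WT replicate 1 (1240 CPM) and AdC3KO replicate 3 (767 CPM). Kng1 was near 0 in every WT library at 4 C, with 0.059, 0.052 and 0.047 CPM in replicates 1 to 3. Groups of 3 libraries, those at 30 C, were not searched.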

How the results depend on the processing

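The 7 calls at 30 C were unchanged in number under the size factors of DESeq2, upper-quartile scaling, no filter, no robust estimation and the muscle covariate. The count became 4 with a filter at 5 CPM (3 higher), where the 3 genes of lowest level were not tested, 4 with the replicate block (3 higher), 2 without the libraries with muscle transcripts (1 higher, 2 list members called, 3 genes called at 4 C) and 4 with the library split as a term (3 higher). The 6 libraries at 30 C alone gave 10 calls, 5 of them lower. DESeq2 called 21 genes at 4 C against 8 by edgeR. The muscle covariate gave 1 interaction call. Leaving out 1 library gave 4 to 7 calls at 30 C (3 to 6 higher), with 4 without WT replicate 1 (losing Eif4a2, Ankdd1a and Gm7049) and 4 without WT replicate 3 (losing the same). The replicate block also lost these 3. Title numbers do not pair libraries, and the block is given only for completeness. Clstn3 and Kng1 were called under all 25 alternatives, Pex5 under 24, and no called gene changed sign. Log2 fold changes of Clstn3 ran from -3.82 to -3.63. List medians moved by more than the spread between replicates in 34 combinations of list and alternative and by less in 890. The cause of these losses was not tested. Depth limits genes near 1 CPM, such as Ankdd1a and the pseudogenes.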
